A study of Mus musculus with 8 samples.

Results

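The genes described here are 10 markers of intermediate progenitors, the dividing precursors of excitatory neurons in the embryonic cortex: Eomes, Neurog1, Neurog2, Insm1, Btg2, Gadd45g, Mfap4, Sstr2, Neurod4 and Nhlh1. They were chosen by name, as every non-control probe that the array design assigns to one of these symbols. This gave 12 probes, with 2 probes each for Eomes and Nhlh1 and 1 probe for each of the other 8 genes, among 34741 gene and feature names on the array. Expression was measured in whole cortex of 8 male mice of the inbred strain C57BL/6NCr at postnatal day 1.5, with 1 one-colour array per pup. In the ischemia group (4 pups), the embryos had been made ischemic at E16.5, in late embryonic life, by clipping the uterine arteries of the anesthetised mother for 14 min. The other 4 pups were labelled control. No source says whether control mothers had surgery without occlusion, or which pups were littermates, so p-values measure the spread between the sampled pups only. All 8 arrays lay on the same slide, and each group filled a row of its own, so slide row and group cannot be told apart.

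Intermediate progenitors arise from radial glia, the stem cells that line the ventricle, move to the subventricular zone and divide there to give pairs of neurons. Neurog1 and Neurog2 are proneural factors that push a radial glial cell toward this fate, Eomes and Insm1 mark and promote the intermediate state, and Neurod4 and Nhlh1 are helix-loop-helix factors switched on as daughters become neurons. Around birth the making of projection neurons in the mouse cortex comes to its end and glia are made in their place, so that few intermediate progenitors are left in the tissue.

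What each array reads is a 60-base probe from one stretch of a transcript. A 30-base piece of 6 probes that the results below turn on is given here, for the 2 genes with paired probes (both probes of Eomes and the downstream one of Nhlh1), for the gene with the widest difference and for the 2 genes that could not be measured. Capitals mark AATAAA, the hexamer that commonly lies just before the poly(A) tail. The hexamer is a match of letters and not a proven site, and on the printed strand 10.1% of all 55681 probes hold it (3.74% hold its reverse complement, 13.5% one or the other).
Eomes upstream probe: gctatgaagaacgagtgcccggtgctatta
Eomes downstream probe: taagtcatttttAATAAAtgtggttcaata
Mfap4: agcagaggtctcAATAAActtcaggatctg
Nhlh1 downstream probe: ctccatccatcctcacaccaaactcctagc
Neurog1: agtagtccctcggcttcagaagacttcacc
Neurod4: ccacagcaattatttaggttcaactcaaga

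By the coordinates in the array files (mm9), the Eomes probes lie on chromosome 9, + strand, at chr9:118394425-118394484 and chr9:118395189-118395248, and start at transcript positions 2889 and 3653. The Mfap4 probe lies at chr11:61302147-61302206 on the + strand and holds the hexamer, as does the downstream Eomes probe. The downstream Nhlh1 probe lies on the - strand at chr1:173982907-173982966 and starts at transcript position 1943. The Neurog1 probe lies at chr13:56352616-56352675 and the Neurod4 probe at chr10:129706046-129706105, both on the - strand. No annotation of mm9 exons or transcript ends was used here.

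None of the measured intermediate progenitor genes differed between ischemic and control cortex by the adjusted test. A probe counted as measured when it was well above background, by the scanner software's flag, on at least 4 of the 8 arrays, and 10 of the 12 probes, for 8 of the 10 genes, did so. Values are log2 signals relative to the array's 75th percentile, so that 0 is a spot at that percentile, and differences are ischemia minus control. With limma and Benjamini-Hochberg adjustment over all 27131 measured probes, 0 of the 10 member probes passed at 0.05, where 0.0% of all probes passed. At an unadjusted p under 0.05 there were again 0 of 10, against 10.1% (2742) of all probes. The 2 groups did not overlap for 0 of the 10, against 6.24% of all probes. The members' median difference was 0.01, with 6 probes higher and 4 lower, and over all probes the median was -0.02. The array reads bulk tissue, in which fewer cells of a type and less RNA per cell cannot be told apart.

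**Figure D1:**
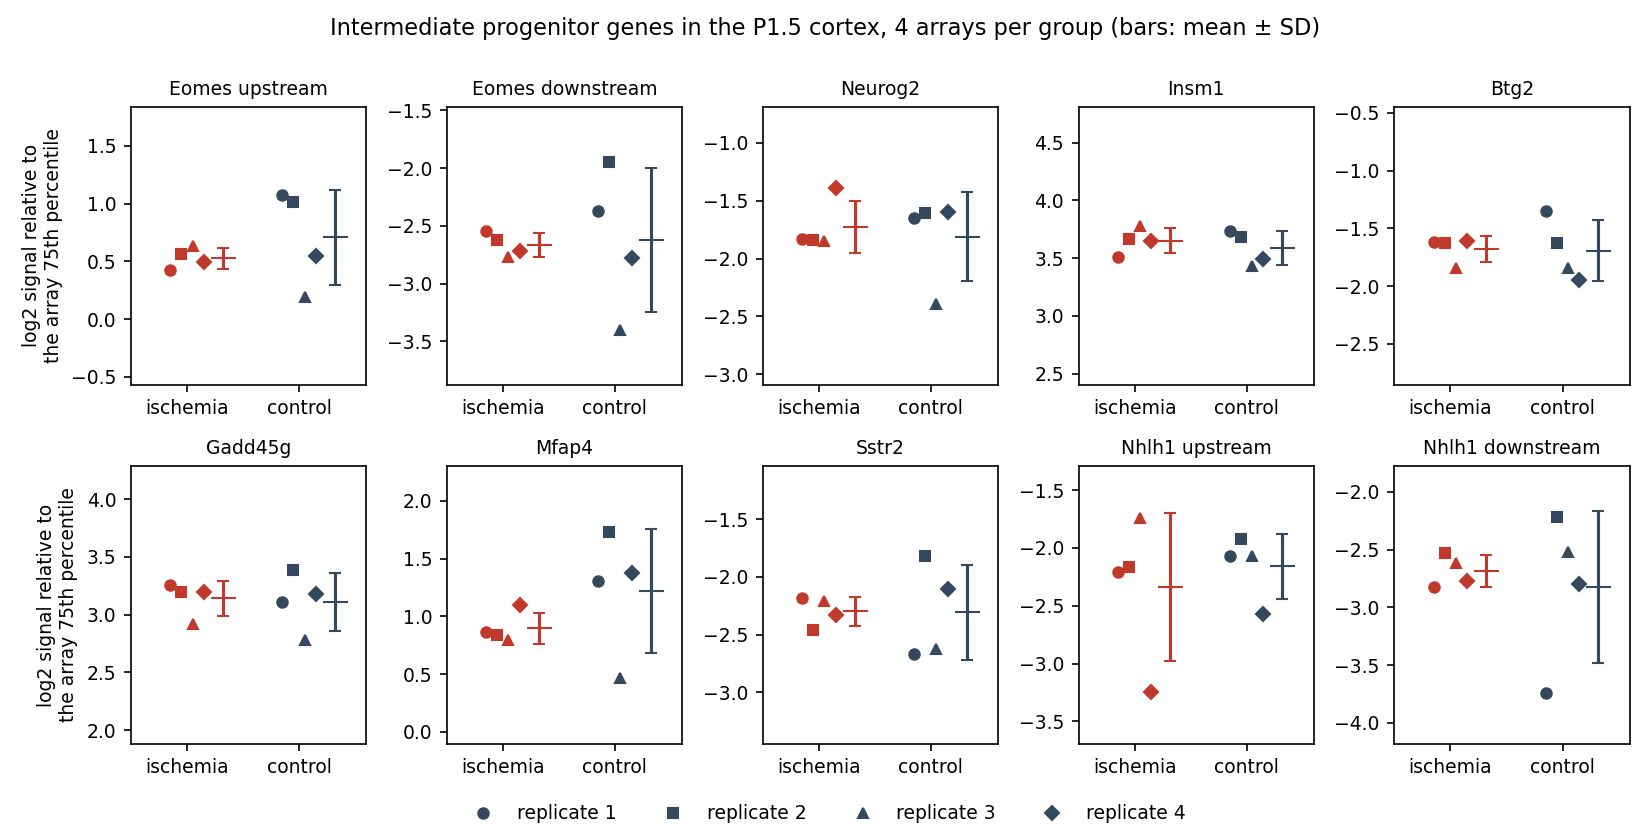
Log2 signal of the 10 measured probes (vertical axes, relative to the array's 75th percentile, each panel spanning the same range) in the ischemia arrays (red, left) and the control arrays (dark, right). Symbols mark the replicate number and bars the mean ± SD of 4 arrays. In each panel the groups overlap, and in all but the upstream Nhlh1 panel the ischemia points lie closer together.

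Eomes, the T-box factor that defines the intermediate progenitor, lay within the range of the controls in all ischemia pups. Its upstream probe read 0.42, 0.56, 0.64 and 0.49 in ischemia arrays 1 to 4, against 1.07, 1.01, 0.19 and 0.55 in control arrays 1 to 4. The ischemia pups clustered near the middle of the control range, with controls 1 and 2 above them and control 3 below. The means were 0.53 ± 0.09 in ischemia and 0.71 ± 0.41 in control (SD, n = 4 each). The difference was -0.18 (SE 0.19, limma adjusted p = 0.801, exact two-sided permutation p = 0.371), with a 95% confidence interval from -0.61 to 0.25. The downstream probe, which holds the poly(A) hexamer, read -2.54, -2.62, -2.77 and -2.72 in ischemia, against -2.37, -1.94, -3.40 and -2.78 in control. Among the controls it gave the same picture, with controls 1 and 2 high and control 3 lowest. The order of the ischemia arrays was not shared, since array 1 was the lowest upstream and the highest downstream. The downstream probe gave a difference of -0.04 (SE 0.27, adjusted p = 0.975, interval from -0.66 to 0.58). With quantile normalization that difference was 0.01.

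Of the factors that act before or with Eomes, 2 were measured. Neurog2, the proneural helix-loop-helix factor of cortical progenitors, read -1.83, -1.84, -1.84 and -1.39 in ischemia, against -1.65, -1.61, -2.39 and -1.60 in control. In each group 3 arrays agreed closely and 1 stood apart, high in ischemia replicate 4 and low in control replicate 3. The difference was 0.09 (SE 0.20, limma adjusted p = 0.920). Its 95% confidence interval ran from -0.36 to 0.53. Insm1, a zinc-finger factor that promotes the delamination of progenitors from the ventricular surface, read 3.51, 3.67, 3.78 and 3.65 in ischemia, against 3.73, 3.68, 3.43 and 3.49 in control. Its groups covered the same range, and it gave the narrowest interval of the 10 probes, from -0.15 to 0.27 around a difference of 0.06 (SE 0.09, adjusted p = 0.864). For Neurog1, the second proneural factor, the probe exceeded background clearly on 0 of 8 arrays, with values from -5.89 to -5.13 in ischemia and from -5.81 to -5.46 in control. No difference can be read from it.

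Btg2 and Gadd45g, which slow or stop the cell cycle and are on in progenitors at their neuron-producing divisions, gave small differences with overlapping groups. Btg2 read -1.62, -1.63, -1.84 and -1.61 in ischemia, against -1.35, -1.63, -1.84 and -1.95 in control, a difference of 0.02 (SE 0.13, adjusted p = 0.978, interval from -0.28 to 0.32). Gadd45g read 3.26, 3.19, 2.92 and 3.20 in ischemia, against 3.11, 3.39, 2.78 and 3.18 in control, a difference of 0.03 (SE 0.13, adjusted p = 0.965, interval from -0.28 to 0.33). Replicate 3 was the lowest array of both groups for Gadd45g. Both genes also respond to stress and neuronal activity. Of 10 immediate early genes, the first transcripts to answer such stimuli, 8 were measured and 0 passed, with a median difference of 0.05. The 2 with the smallest p were Dusp1, a phosphatase that damps kinase signalling, at 0.24 (adjusted p = 0.389) and the zinc-finger factor Egr1 at 0.19 (adjusted p = 0.583). The groups did not overlap for 1 of the 8, Dusp1, which was higher in ischemia, against 6.55% of all genes.

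Mfap4, a microfibril-associated protein of the extracellular matrix that is listed as a marker of these progenitors, showed the widest gap between the group means. It read 0.87, 0.84, 0.80 and 1.10 in ischemia, against 1.31, 1.73, 0.47 and 1.38 in control. All 4 ischemia arrays lay below controls 1, 2 and 4 and above control 3. The means were 0.90 ± 0.13 in ischemia and 1.22 ± 0.53 in control (SD, n = 4 each), a difference of -0.32 (SE 0.24, limma adjusted p = 0.705, exact permutation p = 0.314). Its interval ran from -0.87 to 0.23, so a decrease of up to 0.87 on the log2 scale lies inside it. Mfap4 is also a gene of vascular smooth muscle and fibroblasts. Of 5 genes of vascular smooth muscle and pericytes 4 were measured, all 4 with a lower mean in ischemia and 0 past the test. The 2 with the smallest p were Rgs5 at -0.33 (limma adjusted p = 0.450) and Acta2 at -0.28 (limma adjusted p = 0.646). The mean log2 level of the 4 genes ranged from -0.44 to 0.03 in ischemia and from -0.05 to 0.19 in control. Myh11, the smooth muscle myosin, was well above background on 0 arrays. Of 10 meningeal fibroblast genes 9 were measured, 8 of them with a higher mean in ischemia and 0 past the test, and their mean level ranged from -2.14 to -0.27 in ischemia and from -2.19 to -1.68 in control. The part of these cells in the Mfap4 values was not tested.

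Sstr2, a somatostatin receptor carried by intermediate progenitors and young neurons, read -2.19, -2.46, -2.21 and -2.33 in ischemia, against -2.67, -1.82, -2.63 and -2.11 in control. All ischemia pups lay between the 2 low and the 2 high controls, with a difference of 0.01 (SE 0.19, adjusted p = 0.993, interval from -0.43 to 0.44). The mm9 coordinates of this probe, chr11:113486505-113486903 on the + strand, span 399 bases for a 60-base probe.

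**Figure D2:**
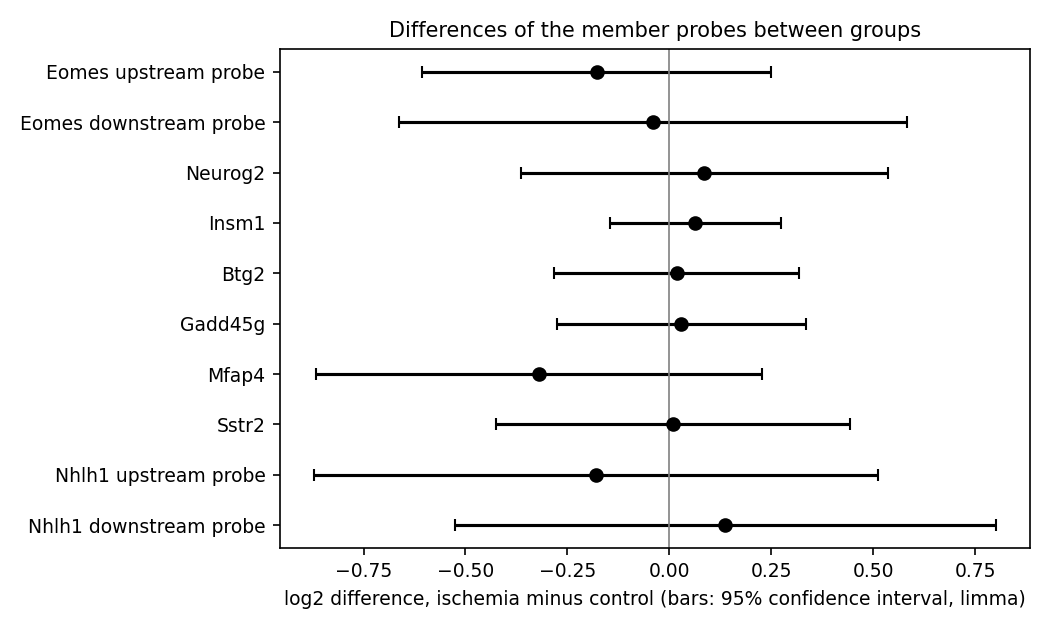
Difference in log2 signal, ischemia minus control (horizontal axis), for the 10 measured probes (rows), with bars for the 95% confidence interval from limma. Each interval contains 0, the narrowest for Insm1 (from -0.15 to 0.27) and the widest for the upstream Nhlh1 probe (from -0.87 to 0.51).

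Of the helix-loop-helix factors of the step from progenitor to neuron, Nhlh1 was measured and Neurod4 was not. The 2 Nhlh1 probes pointed opposite ways and set different pups apart. The upstream probe read -2.20, -2.16, -1.74 and -3.25 in ischemia, against -2.07, -1.92, -2.07 and -2.57 in control. Replicate 4 was the lowest array in both groups here, and the difference was -0.18 (SE 0.30, adjusted p = 0.882). The downstream probe read -2.82, -2.53, -2.62 and -2.77 in ischemia, against -3.74, -2.22, -2.53 and -2.80 in control. Control 1, the lowest value, was also the only array on which this probe was not well above background. The difference was 0.14 (SE 0.29, adjusted p = 0.912, interval from -0.53 to 0.80). With normexp background correction it was -0.03. The Neurod4 probe exceeded background clearly on 0 of 8 arrays, with values from -6.19 to -5.74 in ischemia and from -6.26 to -5.93 in control.

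Most of these genes varied more among the control pups than among the ischemia pups. This pattern was noticed in the values and is given as a description, with no test. For 9 of the 10 measured probes the SD over 4 pups was larger in the controls, and the median SD was 0.13 in ischemia and 0.40 in control. Over all 27131 measured probes the SD was larger in the controls for 49.4%, and the median SD was 0.14 in ischemia and 0.13 in control. With 1 probe per gene it was larger in the controls for 7 of 8 members and 49.9% of all genes. The same held for 5 of 12 further intermediate progenitor and commitment genes, 7 of 12 radial glia genes and 7 of 9 ganglionic eminence and interneuron genes. It held for 3 of 11 dividing-cell genes, 4 of 11 newborn projection neuron genes and 4 of 7 Cajal-Retzius genes. The upstream Eomes probe had an SD of 0.09 in ischemia and 0.41 in control, Mfap4 of 0.13 in ischemia and 0.53 in control, and Sstr2 of 0.13 in ischemia and 0.41 in control. The exception was the upstream Nhlh1 probe, with 0.64 in ischemia and 0.28 in control. Each probe had 1 spot per array, and the software's error estimate for such a spot reached at most 27.5% of its signal.

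Among the controls, 2 pups often lay at opposite ends of the range. Control 3 was the lowest control for 6 of the 10 probes, with a median deviation of -0.33 from the control mean, and control 2 was the highest for 6, with a median of 0.29. Over all measured probes, control 3 was the lowest control for 24.8% and control 2 the highest for 26.5%. Control 3 lay 0.51 below the control mean for the upstream Eomes probe, 0.58 below for Neurog2 and 0.75 below for Mfap4. Without control 3, the SD was larger in the controls for 7 of 10 probes, against 45.8% of all probes, and the members' median control SD was 0.29. Without controls 2 and 3, it was larger for 6 of 10, against 38.5% of all probes. The members' median SD was then 0.32 in control and 0.13 in ischemia, and over all probes 0.10 and 0.14. Members did not share 1 order of pups, since control 1 was high for Eomes and Btg2 and low for Sstr2 and the downstream Nhlh1 probe.

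**Figure D3:**
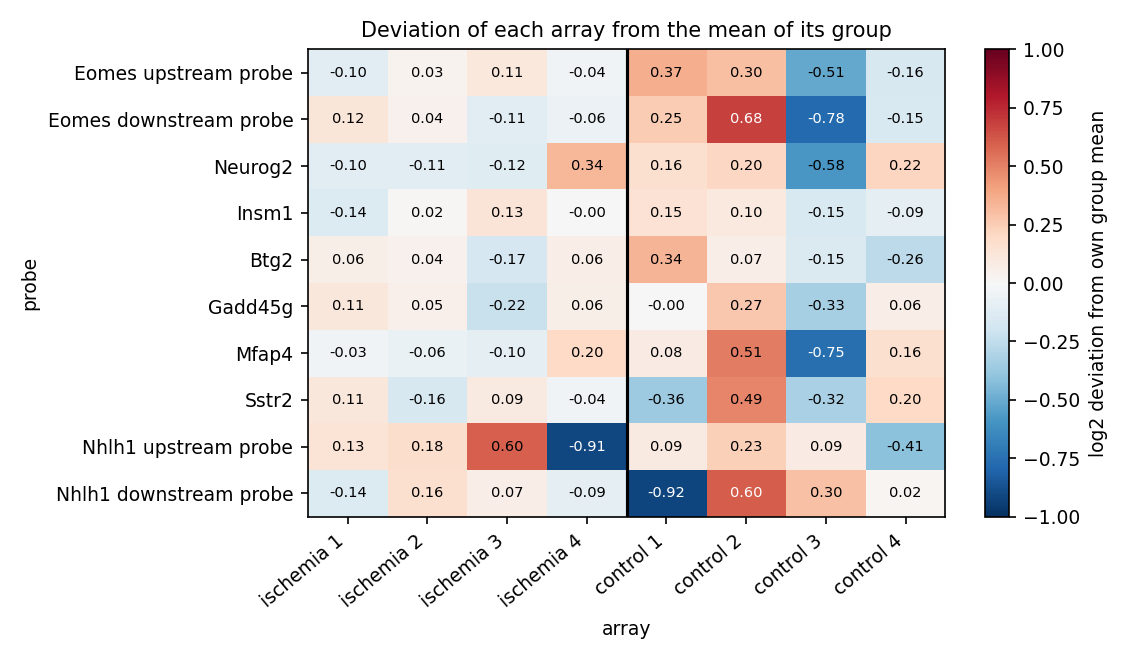
Log2 deviation of each array (columns, ischemia left of the line and control right of it) from the mean of its own group, for the 10 measured probes (rows). Colours and printed values are the same quantity, and control 3 is below its group mean for 8 of 10 probes while control 2 is above it for all 10.

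The deviations of other gene lists in the same control pups are given beside those of the members. The mean of the 8 member genes (the brighter probe of each gene) lay -0.34 from the control mean in control 3 and 0.27 in control 2, and 5 of the 8 had their lowest control value in control 3. For 12 further genes of intermediate progenitors and neuronal commitment these values were -0.10 and 0.07, for radial glia -0.09 and -0.07, and for newborn projection neurons -0.01 and -0.01. Control 3 was the lowest control for 7 of the 12 further progenitor genes, 7 of 12 radial glia genes and 2 of 11 newborn neuron genes. Dividing-cell genes lay -0.15 from the control mean in control 3 and 0.01 in control 2, and 10 of 11 had their lowest control value in control 3. Cajal-Retzius cells are early neurons at the cortical surface that also use Eomes and Nhlh1. Genes of these cells lay -0.20 from the control mean in control 3 and 0.28 in control 2, and 2 of 7 were lowest in control 3. In these 2 controls the directions were those of the members, as they were for the further progenitor genes and the dividing-cell genes. Lists of other cells shared them in controls 2 and 3, such as meningeal fibroblasts (0.09 and -0.14) and microglia (0.08 and -0.03). So did the immediate early genes (0.10 and -0.06). In controls 1 and 4 the Cajal-Retzius genes lay at -0.16 and 0.09, and the members at 0.10 and -0.04. The mean level of the Cajal-Retzius genes ranged from -1.31 to -0.97 in ischemia and from -1.36 to -0.88 in control, with all 7 genes measured. The part of Cajal-Retzius cells in the Eomes and Nhlh1 values was not tested. Mitral cells of the olfactory bulb carry Eomes too, and Tbx21, their defining factor, was well above background on at most 1 array. The other 2 mitral genes gave a mean level from -2.76 to -1.83 in ischemia and from -2.56 to -2.16 in control.

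Of all 19751 genes, a count that includes features without a gene symbol, 0 passed the adjusted test in the main fit. The 0 in each list of the stages around the intermediate progenitor therefore equals the share over all genes. All 12 further intermediate progenitor and commitment genes were measured, 8 with a higher and 4 with a lower mean in ischemia and 0 past the test, with a median difference of 0.03. The 2 with the smallest p were the Notch ligand gene Dll3 at 0.17 (SE 0.09, limma adjusted p = 0.564), whose second probe gave -0.07, and Rnd2, a small GTPase of migrating neurons acting downstream of Neurog2, at -0.15 (SE 0.08, adjusted p = 0.597). Among 12 radial glia genes 5 had a higher and 7 a lower mean in ischemia and 0 passed, with a median of -0.02. The intermediate filament gene Nes differed by -0.23 (SE 0.07, adjusted p = 0.340) and the fatty acid binding protein gene Fabp7 by -0.22 (SE 0.06, adjusted p = 0.350), and these were the 2 genes of the list whose groups did not overlap. Of 12 genes of newborn projection neurons 11 were measured, 7 with a higher and 4 with a lower mean and 0 past the test, with a median of 0.06. The groups did not overlap for 2 of the 11, Dcx, which was higher in ischemia, and the tubulin gene Tubb3, which was lower and is named after its values were seen. The microtubule protein gene Dcx differed by 0.16 (SE 0.08, adjusted p = 0.534, other probes from -0.18 to 0.03) and the guidance cue gene Sema3c by -0.33 (SE 0.17, adjusted p = 0.556). Over all 19751 genes the median was -0.02, 57.0% had a lower mean in ischemia, 10.4% had an unadjusted p under 0.05 and 6.55% had groups that did not overlap.

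Intermediate progenitors divide, and genes of dividing cells were counted beside them. Of 12 such genes, 11 were measured and the ischemia mean was lower for all 11. An unadjusted p under 0.05 was reached by 8 of the 11, against 10.4% of all genes, and the groups did not overlap for 4, against 6.55% of all genes. The adjusted threshold was passed by 0, with a median of -0.26. Tk1, the thymidine kinase of S phase, differed by -0.62 (SE 0.09, second probe -0.28, adjusted p = 0.201) and the mitotic cyclin gene Ccnb2 by -0.50 (SE 0.10, adjusted p = 0.242). The interval of every measured member probe contains 0. All of these intervals except that of Insm1 (from -0.15 to 0.27) also contain -0.26, the median of the dividing-cell genes. For the other member probes a decrease of that size is therefore not excluded. Whether the division genes differed from the progenitor genes in their response was not tested.

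**Figure D4:**
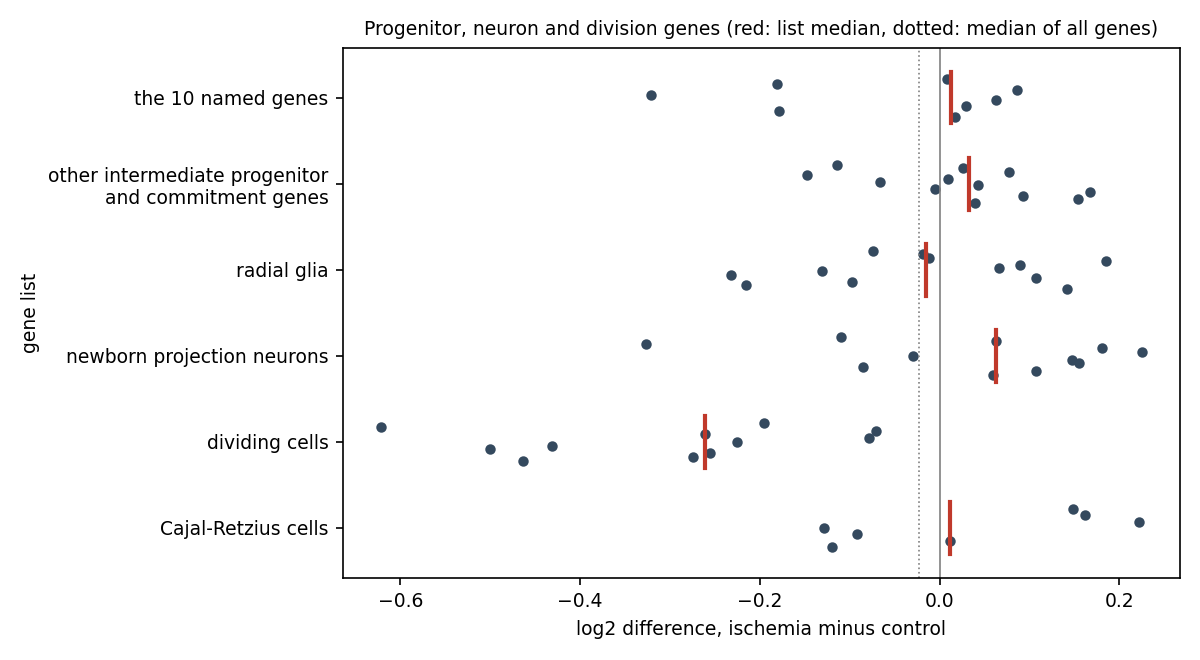
Log2 difference, ischemia minus control (horizontal axis), of each measured gene (points, 1 probe per gene) in 6 gene lists (rows), with the list median in red and the median of all genes dotted. The median of the named genes is 0.01 and that of the dividing-cell genes is -0.26.

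Cells of the ganglionic eminences can enter a cortical dissection. Of 10 genes of the eminences and of interneurons, 9 were measured. Of these 0 passed, with a median of 0.06, and Nkx2-1, the factor of the medial eminence, was well above background on 0 arrays. Dlx1 differed by 0.13 (adjusted p = 0.584) and Dlx6 by -0.22 (adjusted p = 0.779). Of 8 genes of the choroid plexus, a tissue beside the cortex, 4 were measured, with a mean level from -3.58 to 1.41 in ischemia and from -3.03 to -2.93 in control. Relative to the control mean, Ttr, the transthyretin gene of that tissue, stood at 10.12 in ischemia replicate 4, and the meningeal gene Ptgds at 3.83 in ischemia replicate 1 and 4.27 in ischemia replicate 4. Without these 2 arrays 0 of the 10 member probes passed, the upstream Eomes probe differed by -0.11 and Mfap4 by -0.40, and the upstream Nhlh1 probe by 0.21, the opposite sign.

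The genes whose pattern over the 8 arrays was most like that of Eomes were taken by Pearson correlation of values centred within each group, for the upstream Eomes probe against 14457 named genes. The first 5 were Metap2, a methionine aminopeptidase, with r = 0.994, the sialyltransferase gene St6gal1 with 0.982, Adprm with 0.979, the centrosome gene Cep68 with 0.964 and Pole3, a subunit of DNA polymerase epsilon, with 0.962. The SD of the upstream Eomes probe was 0.09 in ischemia and 0.41 in control, so r rests mostly on the 4 control arrays. With so few arrays and so many genes, 38 genes reached an r over 0.9. The downstream Eomes probe, of the same gene, reached only 0.879 with the upstream one. Among the members, Insm1 ranked 46 (r = 0.888), Mfap4 285, Btg2 745, Neurog2 789, Gadd45g 1254, Sstr2 4098 and Nhlh1 4305. Among the 5 most alike, 0 passed the test between groups, with differences from -0.06 to 0.05.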

How the data were processed

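Total RNA (50 ng) of each cortex was amplified and labelled with Cy3 for a one-colour Agilent 8x60K array, per the labels' protocols. Feature Extraction 10.7.3.1 from Agilent turned the scans into spot values, per the submitters' processing notes. The deposited intensity values are processed signals, already corrected for background by the software, and, for 1 alternative, mean and local background signals. The authors' value table is a ratio: dividing an array's processed signals by 1 number gives its column, and the sources used here do not say what that number is.

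From these, control spots and 26 probes with outlier flags were left out. Signals were taken as log2 relative to the array's 75th percentile, which lay between 305.6 and 393.3, and 0 spots were saturated. Between 47.6% and 51.7% of spots per array were well above background. Probes well above background on at least 4 of 8 arrays were kept (27131 probes, with 19751 gene and feature names, counted as genes). Groups were compared per probe by lmFit and eBayes of limma 3.58.1 (R 4.3.3), and p-values were adjusted over all kept probes by the Benjamini-Hochberg method. Lists use 1 probe per gene, that with the highest mean. The number of arrays limits the precision. Names were updated with RefSeq GRCm38.p6. All members are named. From other lists the rule was to name the genes that passed, else the 2 with the smallest p. For the meningeal, Cajal-Retzius and mitral cell lists these are not all given. For the lists of endothelial cells, microglia, oligodendrocyte precursors and blood cells none are given. Also named are the 5 genes most like Eomes, Ttr and Ptgds, and undetected marker genes. Members and lists were chosen with earlier results of these data known. The fit was tested on simulated data. The sequence and position of the upstream Nhlh1 probe are not reported here.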

Additional observations from a re-analysis of the deposited data

Results flagged for a closer look

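Within groups of 4 arrays, 80 sets of values were checked for 1 array lying apart from the other 3, by the ratio of its gap to the range (Dixon's test). This occurred in 6 sets. Chance alone gives about 1 in 20, which would be 4 of 80 independent sets. Among the members, Neurog2 gave 2 of these, with ischemia replicate 4 high (ratio 0.964) and control replicate 3 low (0.927), and Btg2 gave 1, with ischemia replicate 3 low (0.915). The others were Ccnb2 with ischemia replicate 3 low (0.886), Folr1, a folate receptor gene of the choroid plexus, with ischemia replicate 4 high (0.947) and Reln, the secreted cue of Cajal-Retzius cells, with control replicate 1 low (0.897).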

How the results depend on the processing

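Over 19 other settings, 0 member probes passed, and the lowest adjusted p of any member probe was 0.462 (Mfap4 without control replicate 3). Over all probes the count of 0 became 21 with a trended and robust variance and 1 with 1 probe per gene and with the authors' value table, and with an array left out it ranged from 0 to 1 (1 without control replicate 4). With 1 array left out, differences ranged from -0.35 to -0.06 for the upstream Eomes probe, -0.30 to 0.19 for the downstream one, -0.11 to 0.16 for Neurog2, 0.01 to 0.11 for Insm1, -0.069 to 0.13 for Btg2, -0.082 to 0.12 for Gadd45g, -0.57 (without control replicate 3) to -0.15 (without control replicate 2) for Mfap4, -0.11 to 0.17 for Sstr2, -0.38 to 0.12 for the upstream Nhlh1 probe and -0.17 to 0.34 for the downstream one. The sign also turned with quantile normalization for the downstream Eomes probe (0.0057), with normexp for Sstr2 (-0.057) and the downstream Nhlh1 probe (-0.027), and with array weights for Sstr2 (-0.020). Without ischemia replicates 1 and 4, a setting chosen after seeing the data, it turned for Neurog2 (-0.031), Btg2 (-0.044), Gadd45g (-0.056), Sstr2 (-0.030) and the upstream Nhlh1 probe (0.21). The causes were not tested. The count of probes with the larger spread in control, 9 of 10, was 9 with normexp and with quantile normalization, ranged from 7 to 10 with 1 array left out, and was 6 without control replicates 2 and 3. Over all probes the share was 49.8% with normexp and 48.7% with quantile normalization. It ranged from 44.5% to 57.4% with 1 array left out, and was 38.5% without control replicates 2 and 3. Same-numbered arrays of the 2 groups correlated at 0.08, -0.07, 0.27 and 0.36 in their deviations (replicates 1 to 4). Differently numbered arrays ranged from -0.22 to 0.17, below the values of replicates 3 and 4. Same-numbered arrays also shared a slide column, and the source of these correlations was not tested. The main fit did not pair the numbers. With the replicate block the upstream Eomes probe differed by -0.18 as before (adjusted p = 0.761), and 0 probes passed. Signal over background limits the downstream Nhlh1 probe, which was not well above background in control replicate 1, and left Neurog1 and Neurod4 unmeasured.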
